A study of Mus musculus with 9 samples.

Results

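The genes described here are the 10 enzymes that carry out de novo synthesis of purine and pyrimidine nucleotides, Ppat, Gart, Pfas, Paics, Adsl, Atic, Impdh2, Cad, Dhodh and Umps. They were found by their GENCODE symbols on the GRCm38 build of the mouse genome, and all 10 were in the deposited table of 20189 genes. The table comes from wild-type E14 cells, a line of pluripotent mouse embryonic stem (ES) cells grown on gelatin with leukemia inhibitory factor, that lacked Thr or Cys in their medium for 3 h or were kept in medium with all amino acids. Poly(A) RNA was sequenced in 3 Thr-starved, 3 Cys-starved and 3 unstarved samples, and the study used these samples to ask how the response of ES cells to loss of each amino acid differs. All groups share the cell line, its genotype and the duration, and the sample labels name no difference other than the amino acid withheld. In the deposited table the column names of the unstarved libraries carry a tag that those of the starved libraries lack, and its meaning is not given in the sources used here. The labels do not say that the 3 samples of a group came from separate cultures, so the p-values measure the spread between these samples, which may be technical.

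Purine synthesis builds the ring on phosphoribosyl pyrophosphate (PRPP) in a chain of reactions that ends at inosine monophosphate (IMP). PPAT commits PRPP to the pathway, GART, PFAS, PAICS and ADSL assemble the ring from glycine, glutamine, aspartate, bicarbonate and a formyl group, and ATIC adds the last formyl group and closes the ring to IMP. IMPDH2 then turns IMP toward GMP, and ADSL is used again on the branch to AMP. In pyrimidine synthesis the ring is made first: CAD joins carbamoyl phosphate and aspartate, DHODH oxidises the product in mitochondria, and UMPS couples it to PRPP and yields UMP. Glycine and formyl groups tie the purine chain to amino acid supply, and mouse ES cells are known for breaking down Thr to glycine through threonine dehydrogenase.

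Total counts ranged from 48763102 to 74962733 per library. All 8 markers of ES cells examined were detected. Levels are in CPM, the read count scaled to a common library size by the library total and its TMM factor. The summed levels of these markers were 3931 to 3972 CPM in unstarved, 3794 to 3825 CPM in Cys-starved and 4067 to 4147 CPM in Thr-starved libraries, without overlap. Single ES markers moved both ways. Their log2 fold changes ran from -0.65 (Tdh) to 0.85 (Klf4) with Thr and from -0.32 (Dppa5a) to 0.26 (Esrrb) with Cys. Markers of other cell types were low, but their summed levels moved with the starvations, except those of fibroblasts with Cys. Those of fibroblasts, 4 of 6 in the table, summed to 13.3 to 13.6 CPM in unstarved, 12.0 to 14.9 CPM in Cys-starved and 9.48 to 10.6 CPM in Thr-starved libraries. Those of primitive endoderm, 4 of 5 in the table, summed to 3.17 to 3.41 CPM unstarved, 4.30 to 5.07 CPM with Cys and 4.63 to 5.43 CPM with Thr starvation. Those of primed epiblast and germ layers, 4 of 6, summed to 19.8 to 20.4, 24.5 to 25.1 and 23.5 to 27.0 CPM in the same order of groups. Within this last set Sox1 rose with Thr (log2 fold change 0.88), Fgf5 and T fell (-3.66 and -1.56) and Pax6 was not called. The part of cells of other types in the results was not tested. The libraries were made from bulk RNA, so fewer cells of a type and less RNA per cell cannot be told apart.

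Thr starvation lowered 6 of the 10 genes, raised 1 and left 3 without a call, where a call is an adjusted p of 0.05 or less by edgeR's quasi-likelihood test with Benjamini-Hochberg adjustment over all genes. Gart, Pfas, Paics, Atic, Impdh2 and Cad fell, Umps rose, and Ppat, Adsl and Dhodh were not called. Of all 20143 genes tested, 63.0% were called in this comparison, 31.1% higher and 31.9% lower. The 10 enzymes are well-expressed genes, and of the 4485 genes that averaged 50 CPM or more, a threshold set after the levels of the members were seen, 84.8% were called, 46.4% higher and 38.4% lower. The share of members called, 7 of 10, was thus no higher than that of genes at similar levels. In 7 of 10 the values with Thr were separate from all unstarved values, which was so for 66.5% of all genes and 86.1% at 50 CPM or more. Their median log2 fold change was -0.10, against 0.04 over the genes with at least 50 CPM and -0.02 over all genes.

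Cys starvation lowered 7 of the 10 genes and raised 1. Ppat, Pfas, Paics, Adsl, Atic, Impdh2 and Umps fell, Cad rose, and Gart and Dhodh were not called. The background was 36.3% of all genes called, 17.5% higher and 18.8% lower, and at 50 CPM or more 66.6% called, 21.3% higher and 45.2% lower. In 7 of 10 the values with Cys were separate from all unstarved values, beside 46.4% of all genes and 73.7% at 50 CPM or more. Cad and Umps were called in opposite directions in the starvations, as were 7.45% of all genes and 16.1% of those at 50 CPM or more. The median log2 fold change of the 10 genes was -0.10, against -0.06 over the genes with at least 50 CPM and 0.01 over all genes. The changes were small: the median absolute log2 fold change of the members was 0.21 with Thr and 0.11 with Cys starvation, beside 0.26 and 0.12 over the genes with at least 50 CPM.

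**Figure D1:**
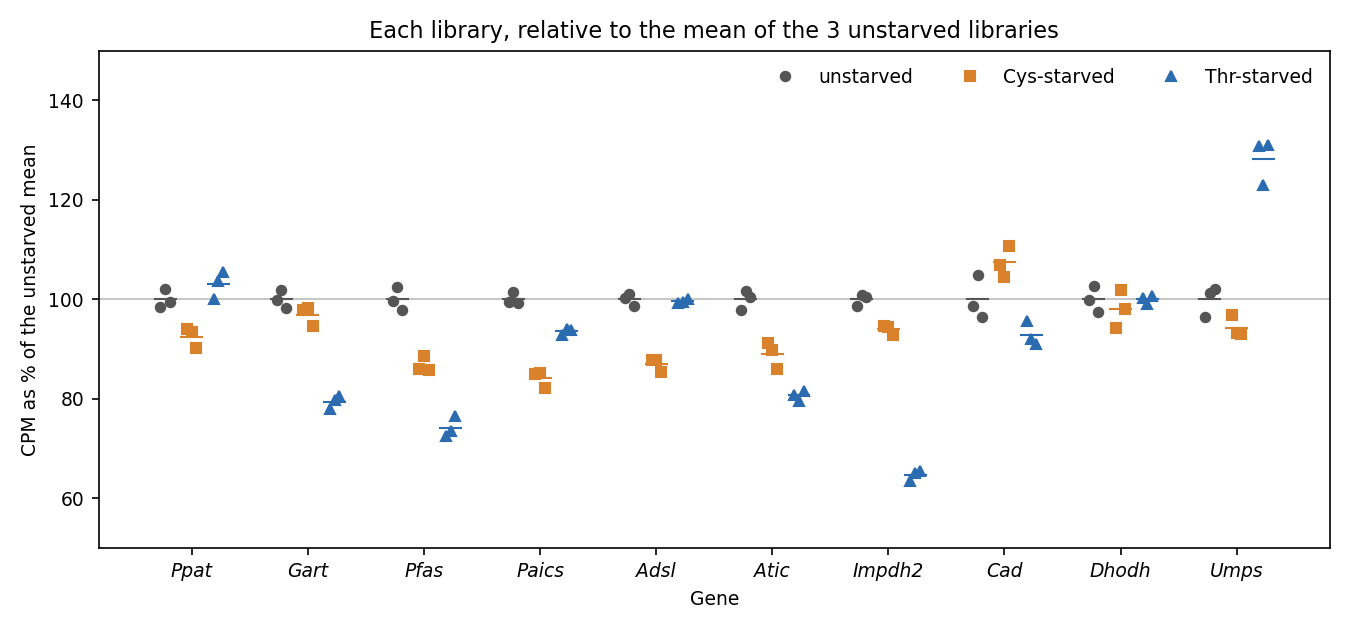
CPM of each of the 10 genes in each of the 9 libraries, as a percentage of the mean of the 3 unstarved libraries (vertical axis), in pathway order (horizontal axis). Points are single libraries and short lines group means. Impdh2 in the Thr-starved libraries lies lowest, between 63.5% and 65.5%, and Umps in the same libraries highest, between 123% and 131%.

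Short stretches of sequence around the start sites are shown for the members whose window holds a searched motif, since the genes encode successive steps of a single pathway and motifs of regulators known for metabolic genes can be compared among them. RefSeq promoter windows on GRCm38.p6, 250 bases before to 50 after the annotated start, were at hand for 8 of the 10 genes. The motifs were CACGTG, the E-box bound by MYC and related factors, TGATGNAAN, an element of ATF4, and a 10-base element of NRF1, each searched on both strands, with no overlap between the matches. CACGTG was found in 3 windows (Paics, Atic and Impdh2), the NRF1 element in 1 (Ppat, as GCGCAGGCGC) and TGATGNAAN in 0. Of all 32851 windows in the table, 7.15%, 4.6% and 3.95% held CACGTG, the NRF1 element and TGATGNAAN, respectively. The windows of Gart, Adsl, Cad and Umps held none of these letters. Each window is given 5′ to 3′ on the strand of its gene, with the matching bases in capitals, for Ppat at chr5:76951529-76951828 (minus strand), Paics at chr5:76951052-76951351 (plus strand), Atic at chr1:71556906-71557205 (plus strand) and Impdh2 at chr9:108560186-108560485 (plus strand).
Ppat: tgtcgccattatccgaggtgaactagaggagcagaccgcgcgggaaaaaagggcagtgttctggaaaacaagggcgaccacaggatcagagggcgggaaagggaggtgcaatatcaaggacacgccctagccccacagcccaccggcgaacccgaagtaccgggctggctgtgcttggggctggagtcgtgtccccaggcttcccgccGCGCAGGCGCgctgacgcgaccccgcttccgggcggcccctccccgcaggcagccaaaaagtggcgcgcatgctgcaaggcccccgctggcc
Paics: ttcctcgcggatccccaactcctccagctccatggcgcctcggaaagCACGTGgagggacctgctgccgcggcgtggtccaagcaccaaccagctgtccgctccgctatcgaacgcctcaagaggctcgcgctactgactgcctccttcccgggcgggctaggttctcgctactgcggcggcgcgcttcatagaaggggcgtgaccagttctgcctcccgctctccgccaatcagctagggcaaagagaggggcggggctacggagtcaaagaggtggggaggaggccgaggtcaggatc
Atic: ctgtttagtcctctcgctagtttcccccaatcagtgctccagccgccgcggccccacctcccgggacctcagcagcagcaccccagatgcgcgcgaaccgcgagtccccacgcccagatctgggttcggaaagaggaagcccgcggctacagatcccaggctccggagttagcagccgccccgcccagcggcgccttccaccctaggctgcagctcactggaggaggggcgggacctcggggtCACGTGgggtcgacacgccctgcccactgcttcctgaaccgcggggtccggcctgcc
Impdh2: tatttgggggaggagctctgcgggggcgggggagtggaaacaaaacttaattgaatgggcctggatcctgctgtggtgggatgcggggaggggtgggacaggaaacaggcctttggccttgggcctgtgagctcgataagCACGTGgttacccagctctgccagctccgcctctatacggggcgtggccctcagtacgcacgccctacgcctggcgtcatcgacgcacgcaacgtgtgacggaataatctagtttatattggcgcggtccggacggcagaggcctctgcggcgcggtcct
The match begins 42 bases before the RefSeq start in Ppat, 203 in Paics, 7 in Atic and 110 in Impdh2. For Impdh2 this start lies 150 bases downstream of the GENCODE start used for the gene's position here, so its match lies inside the GENCODE gene. For the other 3 the starts differ by at most 6 bases.

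Ppat (chr5:76913249-76951578, minus strand) encodes the amidotransferase of the committed step. It was counted at 269.8, 279.7 and 272.2 CPM in the unstarved libraries, 257.4, 255.6 and 246.9 CPM in the Cys-starved and 274.1, 284.2 and 289.2 CPM in the Thr-starved libraries. All Cys-starved libraries lay below all unstarved ones, whereas the Thr-starved libraries overlapped them. Ppat fell with Cys starvation (log2 fold change -0.11 ± 0.03, adjusted p = 0.00102) and was not called with Thr (log2 fold change 0.04 ± 0.03, adjusted p = 0.128). With Thr the call changed without the second unstarved library, at 0.07 (adjusted p = 0.0379), and without the first Thr-starved library, also at 0.07 (adjusted p = 0.0327), and the direction turned to -0.08 (adjusted p = 0.00441) once offsets took out the trend of each library over GC content and length.

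Paics (chr5:76951307-76967509, plus strand) starts beside Ppat on the other strand and encodes a bifunctional enzyme of the middle of the purine chain, a carboxylase joined to a synthetase. The first exons of the pair overlap by 272 bases, and since the strand setting of the counting is not given in the sources used here, reads of that stretch may be uncertain between them. Paics was counted at 611.4, 624.2 and 610.2 CPM in the unstarved libraries, 523.3, 524.0 and 505.6 CPM in the Cys-starved and 571.1, 578.1 and 577.8 CPM in the Thr-starved libraries. The 3 groups did not overlap, with the Cys-starved libraries lowest. Paics fell by 15.9% with Cys (log2 fold change -0.25 ± 0.02, adjusted p = 1.29e-09) and fell by 6.44% with Thr (log2 fold change -0.10 ± 0.02, adjusted p = 1.92e-04). Of the genes that start face to face here, Paics was called lower with both starvations and Ppat with Cys, and in the direct comparison of the starvations both were higher with Thr, by 0.16 ± 0.03 for Ppat and 0.15 ± 0.02 for Paics on the log2 scale.

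Gart (chr16:91621186-91646952, minus strand) encodes a trifunctional enzyme that adds glycine and the first formyl group and closes the first ring. Its level was 436.8, 445.5 and 430.0 CPM in unstarved, 428.1, 429.7 and 414.4 CPM in Cys-starved and 340.9, 348.7 and 352.2 CPM in Thr-starved libraries. The Thr-starved libraries stood well below the other 6. Gart fell by 20.6% with Thr (log2 fold change -0.33 ± 0.02, adjusted p = 8.03e-12), which became -0.20 with the GC and length offsets. With Cys it was not called (log2 fold change -0.04 ± 0.02, adjusted p = 0.126), although the 3 Cys-starved libraries lay below the unstarved ones, and it was called lower, at -0.09, with the deposited size factors (adjusted p = 0.00441) and, at -0.07, with the GC and length offsets (adjusted p = 0.0161). An antisense gene, Gm15964, shares 1014 exon bases with Gart on the other strand.

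Pfas (chr11:68985697-69008460, minus strand) encodes the glutamine-using synthase that acts between the reactions of GART. Its libraries read 215.8, 222.2 and 212.2 CPM unstarved, 186.3, 192.2 and 185.9 CPM with Cys and 157.2, 159.5 and 165.7 CPM with Thr starvation. The groups were separate, in the order unstarved, Cys-starved, Thr-starved. Pfas fell by 25.8% with Thr (log2 fold change -0.43 ± 0.03, adjusted p = 1.78e-12) and fell by 13.2% with Cys (log2 fold change -0.20 ± 0.03, adjusted p = 1.79e-06).

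Adsl (chr15:80948490-80970946, plus strand) encodes the lyase that releases fumarate, once in the chain to IMP and again on the way to AMP. It was at 138.8, 139.9 and 136.6 CPM in unstarved, 121.6, 121.5 and 118.1 CPM in Cys-starved and 137.4, 137.7 and 138.6 CPM in Thr-starved libraries. The Cys-starved libraries were all lower than the rest, and the Thr-starved libraries overlapped the unstarved ones. Adsl fell by 13% with Cys (log2 fold change -0.20 ± 0.02, adjusted p = 9.86e-07) and was not called with Thr (log2 fold change -0.01 ± 0.02, adjusted p = 0.846).

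Atic (chr1:71557150-71579631, plus strand) encodes the enzyme of the last reactions before IMP, which takes up the second formyl group. Its values were 349.2, 363.1 and 358.5 CPM unstarved, 325.6, 320.2 and 306.7 CPM Cys-starved and 288.2, 284.2 and 291.2 CPM Thr-starved. As for Pfas, the groups did not overlap and the Thr-starved libraries were lowest. Atic fell by 19.3% with Thr (log2 fold change -0.31 ± 0.02, adjusted p = 1.39e-10) and fell by 11% with Cys starvation (log2 fold change -0.17 ± 0.02, adjusted p = 7.87e-06).

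Impdh2 (chr9:108560286-108565584, plus strand), which encodes the dehydrogenase that limits the flow of IMP to GMP, showed with Thr starvation the largest change of the 10 genes against unstarved cells. It was counted at 434.1, 443.8 and 441.9 CPM in unstarved, 416.1, 415.2 and 408.5 CPM in Cys-starved and 279.2, 286.1 and 288.2 CPM in Thr-starved libraries. The highest Thr-starved library was well under the lowest of the other 6. Impdh2 fell by 35.3% with Thr (log2 fold change -0.63 ± 0.02, adjusted p = 4.07e-17) and fell by 6.06% with Cys (log2 fold change -0.09 ± 0.02, adjusted p = 0.00147). The counts of Impdh2 are uncertain because a processed pseudogene, Impdh2-ps (chr8:100030558-100032102, plus strand), is 99.7% identical to its transcript over 1545 of 1858 bases, and the pseudogene was itself counted at 207.9, 204.3 and 204.2 CPM in unstarved, 194.2, 197.3 and 193.9 CPM in Cys-starved and 129.5, 132.9 and 134.5 CPM in Thr-starved libraries. Its log2 fold change was -0.64 ± 0.02, adjusted p = 3.27e-16, with Thr and -0.07 ± 0.02, adjusted p = 0.0156, with Cys. With both counts summed, an alternative added after seeing the data, the change of Impdh2 was -0.63 ± 0.02 with Thr and -0.09 ± 0.02 with Cys starvation. Which of the loci the reads came from was not tested.

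Among the pyrimidine genes, Cad (chr5:31054780-31078479, plus strand) encodes the trifunctional protein that starts the pathway. Its level was 406.0, 431.8 and 396.6 CPM in unstarved, 440.1, 430.1 and 455.8 CPM in Cys-starved and 393.3, 378.8 and 374.6 CPM in Thr-starved libraries. The Thr-starved libraries lay below all others, and the Cys-starved libraries overlapped the unstarved ones, whose second library was high. Cad fell by 7.13% with Thr (log2 fold change -0.11 ± 0.03, adjusted p = 0.00243) and rose by 7.41% with Cys (log2 fold change 0.10 ± 0.03, adjusted p = 0.00617). Neither call held in every alternative. Offsets for GC content and length turned the change with Thr to 0.16 (adjusted p = 4.84e-06), and Cad, with 57.4% GC in its exons, had a higher GC content than 89.98% and longer exons than 83.6% of the 11405 genes that averaged 5 CPM or more. With Cys the call was lost with the deposited size factors, at 0.06 (adjusted p = 0.0951), and without the third unstarved library, at 0.08 (adjusted p = 0.0602). Without the second unstarved library the change with Thr was -0.06 (adjusted p = 0.0464).

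Dhodh (chr8:109591343-109608673, minus strand) encodes the dehydrogenase of the inner mitochondrial membrane that hands its electrons to the respiratory chain. It was counted at 67.2, 69.1 and 65.6 CPM unstarved, 63.4, 68.6 and 66.0 CPM Cys-starved and 67.4, 66.7 and 67.8 CPM Thr-starved. All 3 groups overlapped, and Dhodh was called in no comparison, with log2 fold changes of -0.00 ± 0.03, adjusted p = 0.996, for Thr and -0.03 ± 0.03, adjusted p = 0.558, for Cys starvation. Only with the GC and length offsets was it called in the direct comparison, 0.11 higher with Thr than with Cys (adjusted p = 0.00734).

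Umps (chr16:33954782-33967038, minus strand) encodes the bifunctional enzyme that makes UMP, and it was the only member that rose with Thr starvation. Its libraries read 101.2, 106.3 and 107.1 CPM unstarved, 101.5, 97.8 and 97.5 CPM Cys-starved and 137.1, 129.1 and 137.3 CPM Thr-starved. The Thr-starved libraries lay above the other 6, and the first Cys-starved library overlapped the lowest unstarved one. Umps rose by 28.3% with Thr (log2 fold change 0.36 ± 0.03, adjusted p = 5.87e-10). With Cys it fell by 5.66% (log2 fold change -0.08 ± 0.03, adjusted p = 0.0374), a call that was lost at a threshold of 0.01, with the replicate number as a block (adjusted p = 0.0554) and without the second or the third library of the unstarved or the Cys-starved group (log2 fold changes from -0.08 to -0.07). The antisense gene Gm15829 shares 213 exon bases with Umps on the other strand.

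**Figure D2:**
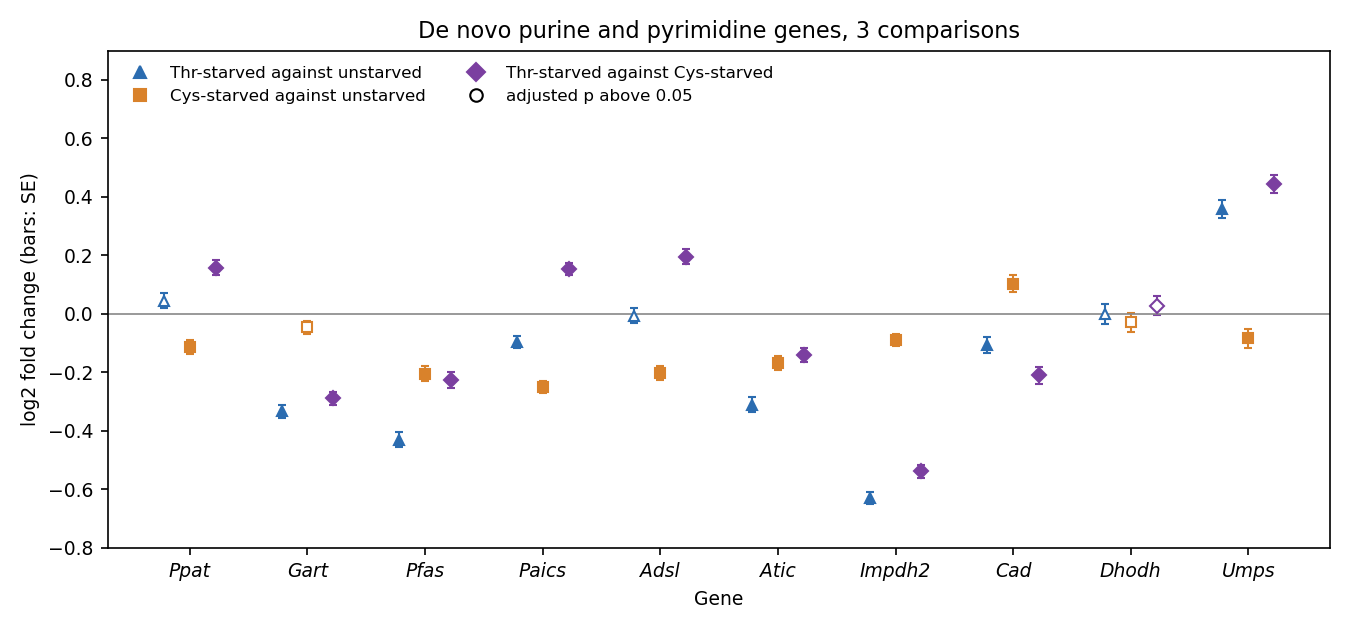
Log2 fold change of the 10 genes (vertical axis, bars are SE) in pathway order (horizontal axis) for the 3 comparisons, with open symbols where the adjusted p was above 0.05. With Thr starvation the values run from -0.63 for Impdh2 to 0.36 for Umps, and with Cys from -0.25 for Paics to 0.10 for Cad.

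Thr-starved and Cys-starved libraries were also compared directly, which tests whether a gene answered the starvations differently. Ppat, Paics, Adsl and Umps were higher with Thr than with Cys, Gart, Pfas, Atic, Impdh2 and Cad were lower, and Dhodh was not called. In this comparison 62.0% of all genes were called, 30.4% higher and 31.6% lower, and at 50 CPM or more 85.1%, 54.1% higher and 31.0% lower. The largest differences were those of Impdh2 (log2 fold change -0.54 ± 0.02, adjusted p = 7.89e-16) and Umps (log2 fold change 0.44 ± 0.03, adjusted p = 1.78e-11), and the smallest of the called ones that of Atic (log2 fold change -0.14 ± 0.02, adjusted p = 2.53e-05). For Ppat, Paics and Adsl the Cys-starved libraries were the lowest of all 9, and for Gart, Pfas, Atic, Impdh2 and Cad the Thr-starved ones. The starvations did not overlap in 9 of the 10 genes, beside 65.8% of all genes and 85.8% at 50 CPM or more. The GC and length offsets changed Cad from -0.21 to 0.08 (adjusted p = 0.00744), Ppat from 0.16 to 0.06, Gart from -0.29 to -0.13 and Pfas from -0.23 to -0.08, all still called.

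Levels were compared between genes per kilobase of the merged exons. In unstarved cells Paics was highest at 196.0 ± 2.5 CPM per kb (SD, n = 3), followed by Impdh2 at 143.0 ± 1.7 and Gart at 85.0 ± 1.5 CPM per kb. Ppat, at 62.0 ± 1.2, and Cad, at 50.3 ± 2.2 CPM per kb, which begin the purine and the pyrimidine pathway, stood in the middle of the order. Atic (44.7 CPM per kb), Umps (30.1), Pfas (27.3) and Adsl (24.6) followed, and Dhodh was lowest at 10.6 ± 0.27 CPM per kb. Each pair of neighbours in this order was separated by more than the sum of their SDs. The level of Impdh2 leaves out the reads counted at Impdh2-ps, 207.9, 204.3 and 204.2 CPM in the unstarved libraries, so its rank against Paics is uncertain. With Thr starvation Umps, at 38.6 ± 1.4 CPM per kb, stood above Atic, at 36.0 ± 0.44, and Adsl above Pfas. Per kilobase of the longest transcript the order changed, with Atic (125.4 CPM per kb) level with Gart (124.3) in unstarved cells and Impdh2 (236.8) close to Paics (247.9), while Paics and Impdh2 at the top, Dhodh at the bottom and Pfas in the eighth place kept their rank in unstarved cells.

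**Figure D3:**
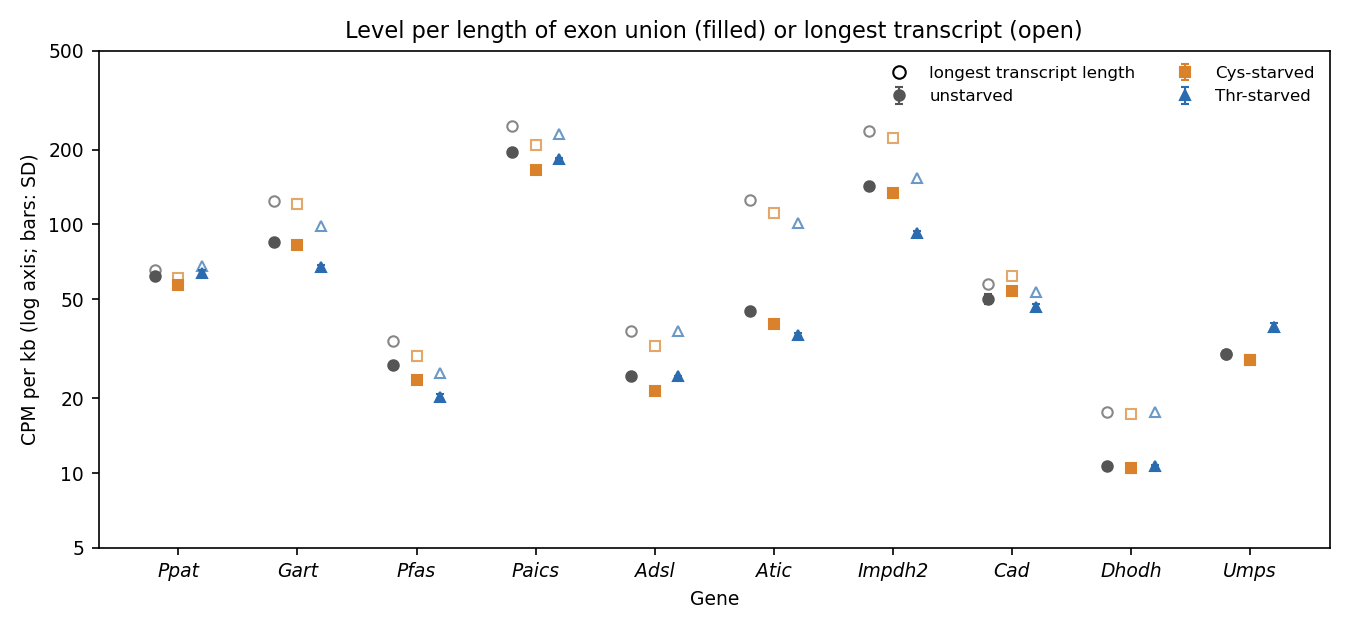
Mean CPM per kilobase (vertical log axis, bars are SD over 3 libraries) of the 10 genes in pathway order (horizontal axis) in the 3 groups. Filled symbols use the length of the merged exons and open symbols that of the longest transcript. Paics and Impdh2 are highest and Dhodh lowest with either length, while Atic moves from 44.7 to 125.4 CPM per kb in unstarved cells.

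The other genes of nucleotide metabolism were taken from 7 lists with 82 genes, of which 77 were tested. With Thr starvation 27 were higher and 35 lower, with Cys 14 were higher and 27 lower, and between the starvations 27 were higher and 35 lower with Thr. Of all 20143 genes tested, 63.0% were called with Thr, 36.3% with Cys and 62.0% between the starvations. Among the 67 list genes that averaged 5 CPM or more, 59, 40 and 56 were called in the same order. The shares of all genes at that level were 80.6%, 55.0% and 80.6%. The median log2 fold changes of the 77 tested list genes were -0.11 with Thr and -0.06 with Cys starvation. Over all genes tested, also with no cut on level, the medians were -0.02 with Thr and 0.01 with Cys. At 50 CPM or more, the median of all genes was 0.04 with Thr and -0.06 with Cys.

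PRPP, the sugar phosphate that both pathways consume, is made by synthetases of the Prps family, which bind the associated proteins PRPSAP1 and PRPSAP2. With Thr starvation Prps1, Prpsap1 and Prpsap2 rose and Prps2 fell, and with Cys starvation Prps1 and Prps2 fell and the other 2 were not called. Prps1 was at 173.2, 170.6 and 170.7 CPM in unstarved, 155.1, 157.0 and 153.8 CPM in Cys-starved and 213.0, 219.1 and 221.1 CPM in Thr-starved libraries. Its groups did not overlap, and the log2 fold changes were 0.34 ± 0.02, adjusted p = 1.31e-11, with Thr and -0.14 ± 0.02, adjusted p = 4.51e-05, with Cys. Prps2 was at 39.5, 36.7 and 37.8 CPM in unstarved, 26.9, 28.3 and 29.3 CPM in Cys-starved and 27.5, 26.7 and 27.1 CPM in Thr-starved libraries. It was lower in all 6 starved libraries, by 0.49 with Thr and 0.43 with Cys on the log2 scale, and the starvations were not told apart (log2 fold change -0.06 ± 0.04, adjusted p = 0.275) except with the GC and length offsets, at -0.20 (adjusted p = 2.29e-04). Prpsap1 rose by 0.22 and Prpsap2 by 0.34 on the log2 scale with Thr, and with Cys their values were 0.00 (adjusted p = 0.961) and -0.07 (adjusted p = 0.222), the latter called lower, at -0.11, with the deposited size factors (adjusted p = 0.0396). The GC and length offsets kept the 3 rises with Thr but changed their size, to 0.15 for Prps1, 0.40 for Prpsap1 and 0.17 for Prpsap2.

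Beyond IMP and UMP, 6 genes lead to AMP, GMP and CTP. With Thr starvation Impdh1, Gmps, Adss and Ctps2 fell, Ctps rose and Adssl1, a muscle form listed at under 1 CPM, was not called. Impdh1, the second IMP dehydrogenase, was at 67.8, 70.4 and 70.9 CPM in unstarved, 56.0, 60.9 and 58.2 CPM in Cys-starved and 27.7, 28.7 and 31.1 CPM in Thr-starved libraries. It fell with both starvations, by a log2 fold change of -1.25 ± 0.04, adjusted p = 4.86e-17, with Thr and -0.26 ± 0.04, adjusted p = 2.07e-05, with Cys. Gmps, which makes GMP from the product of IMPDH, was at 183.1, 184.4 and 182.5 CPM, 176.4, 179.4 and 173.2 CPM and 132.5, 137.7 and 130.0 CPM in the same order of groups. It fell with Thr (log2 fold change -0.46 ± 0.03, adjusted p = 4.01e-13) and was not called with Cys (log2 fold change -0.06 ± 0.03, adjusted p = 0.0971), where the deposited size factors gave -0.10 (adjusted p = 0.00406) and the GC and length offsets -0.15 (adjusted p = 4.78e-05). The 3 genes that lead from IMP to GMP, Impdh1, Impdh2 and Gmps, were each lower in every Thr-starved library than in all 6 other libraries. Separation of the Thr-starved from the unstarved libraries alone, in either direction, was seen in 66.5% of all genes and 86.1% at 50 CPM or more. Called lower with Thr were 31.9% of all genes and 38.4% at 50 CPM or more. The share of genes below all 6 other libraries was not counted.

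Adss, the synthetase that opens the branch to AMP, fell with Thr (log2 fold change -0.33 ± 0.02, adjusted p = 5.20e-11) and with Cys (log2 fold change -0.08 ± 0.02, adjusted p = 0.0154). The call with Cys was lost at a threshold of 0.01 and without the second unstarved library (-0.06, adjusted p = 0.0916) or the second or the third Cys-starved library (both -0.07, adjusted p = 0.0515 and 0.0510), while the GC and length offsets gave -0.51 with Thr and -0.13 with Cys. Its libraries read 219.6, 228.7 and 219.4 CPM unstarved, 213.7, 210.2 and 209.4 CPM Cys-starved and 176.8, 175.2 and 180.2 CPM Thr-starved. The CTP synthetases moved apart with Thr starvation. Ctps, at 168.3, 169.5 and 170.8 CPM unstarved, 183.1, 180.3 and 181.3 CPM Cys-starved and 191.3, 193.0 and 191.8 CPM Thr-starved, rose with both (log2 fold change 0.18 ± 0.02, adjusted p = 2.92e-07, with Thr and 0.10 ± 0.02, adjusted p = 0.00124, with Cys), although the deposited size factors took the call with Cys away (adjusted p = 0.0554). Ctps2, at 12.2 ± 0.95 CPM (SD, n = 3) in unstarved cells, fell with Thr by 0.41 on the log2 scale (adjusted p = 4.89e-05) and was at -0.11 with Cys (adjusted p = 0.264).

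**Figure D4:**
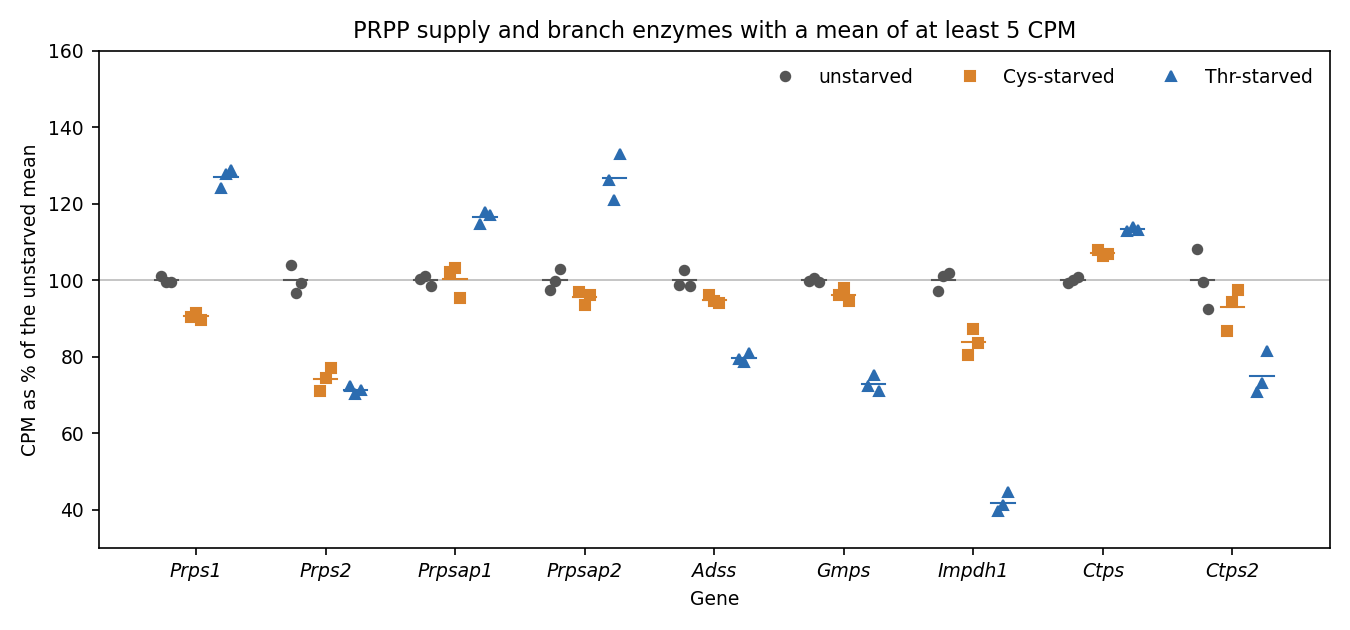
CPM of the PRPP supply genes and of the branch enzymes averaging 5 CPM or more in each library, as a percentage of the mean of the 3 unstarved libraries (vertical axis), by gene (horizontal axis). Points are libraries and short lines group means. Prps1, Prpsap1, Prpsap2 and Ctps lie above the unstarved libraries with Thr starvation. Relative to its unstarved mean of 69.7 CPM, Impdh1 lies lowest with Thr, where its libraries had 27.7, 28.7 and 31.1 CPM.

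Glycine and formyl groups for the purine ring come from serine, glycine and Thr through folate-bound one-carbon units. Of the 18 genes of this supply, 7 rose and 7 fell with Thr, and 7 rose and 3 fell with Cys starvation. Over all genes tested, 31.1% were higher and 31.9% lower with Thr, and 17.5% and 18.8% with Cys. At 5 CPM or more the shares were 41.5%, 39.1%, 24.6% and 30.5% in the same order. Mthfd2, a mitochondrial enzyme of formyl supply, was at 296.2, 307.3 and 300.3 CPM in unstarved, 493.0, 481.6 and 491.0 CPM in Cys-starved and 525.6, 517.9 and 545.2 CPM in Thr-starved libraries. It rose in both, by a log2 fold change of 0.81 ± 0.02, adjusted p = 1.69e-18, with Thr and 0.70 ± 0.02, adjusted p = 3.52e-16, with Cys. Aldh1l2, which oxidises the mitochondrial formyl carrier, rose from 6.37, 7.45 and 7.31 CPM to 19.5, 16.9 and 18.6 CPM with Cys and to 13.0, 13.5 and 13.6 CPM with Thr, a log2 fold change of 1.38 and 0.93. Tdh, the threonine dehydrogenase itself, fell with both, to 223.7, 228.0 and 230.1 CPM with Thr and 301.4, 303.3 and 297.1 CPM with Cys from 357.9, 360.9 and 351.1 CPM. Its log2 fold change was -0.65 ± 0.02, adjusted p = 4.65e-17, with Thr and -0.25 ± 0.02, adjusted p = 7.18e-09, with Cys starvation. Gcsh, a carrier protein of glycine cleavage, also fell with both, by 0.36 and 0.12 on the log2 scale, and Mthfd2l, a mitochondrial relative of Mthfd2, fell by 0.45 with Thr and was at -0.10 with Cys (adjusted p = 0.371).

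The 9 genes that turn ribonucleotides into deoxynucleotides and thymidylate divided with Thr starvation, 5 higher and 4 lower, and with Cys 2 were higher and 5 lower. Among all genes at 5 CPM or more, 41.5% were higher and 39.1% lower with Thr, and 24.6% and 30.5% with Cys. Rrm1, the large subunit of ribonucleotide reductase, was at 261.1, 270.4 and 267.4 CPM in unstarved, 216.7, 219.0 and 217.1 CPM in Cys-starved and 402.4, 400.5 and 404.0 CPM in Thr-starved libraries. It rose with Thr (log2 fold change 0.60 ± 0.02, adjusted p = 1.36e-16) and fell with Cys (log2 fold change -0.29 ± 0.02, adjusted p = 4.31e-10), with no overlap of the 3 groups. Rrm2, the small subunit, did likewise, at 0.61 ± 0.02 with Thr and -0.09 ± 0.02 with Cys on the log2 scale. Rrm2b, the small subunit known as a target of p53, rose by 0.60 and 0.51, or by 0.35 with Thr under the GC and length offsets. Dctd, the deaminase of dCMP, fell by 0.68 with Thr and was at -0.09 with Cys (adjusted p = 0.0707), which was called lower with the deposited size factors (-0.13, adjusted p = 0.00738), with the GC and length offsets (-0.09, adjusted p = 0.0414) and without the first unstarved or the first Cys-starved library (both -0.11, adjusted p = 0.0499 and 0.0416). Dctpp1, a dCTP pyrophosphatase, and Samhd1, a dNTP hydrolase, fell with Cys by 0.21 and 0.18, and Samhd1 fell with Thr by 0.21, while the fall of Dctpp1 with Thr, -0.11, turned to 0.14 (adjusted p = 1.99e-05) with the GC and length offsets.

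**Figure D5:**
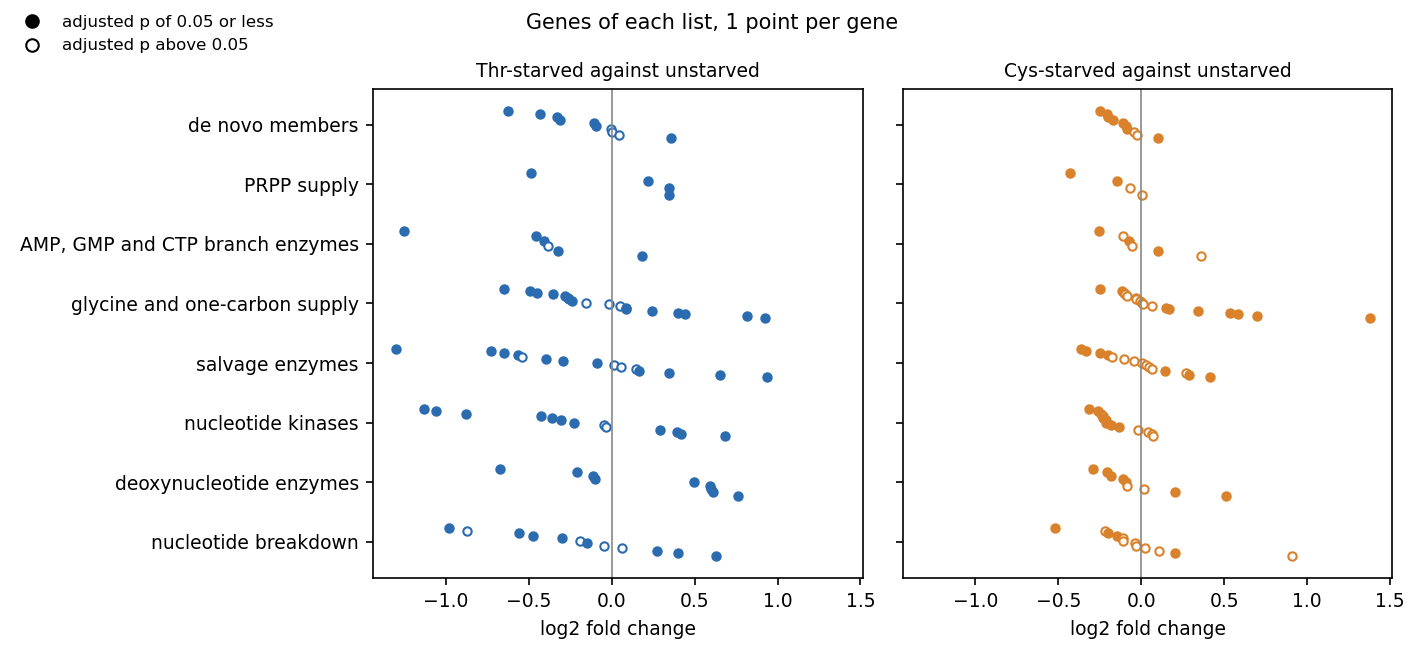
Log2 fold change against unstarved cells (horizontal axis) of each tested gene in the 10 members and the 7 other lists of nucleotide metabolism (rows), for Thr starvation on the left and Cys starvation on the right. Each point is a gene, open where the adjusted p was above 0.05. With Thr starvation the deoxynucleotide genes lie in separate groups at 0.50 and above and at -0.10 and below, and the spread of most lists is narrower with Cys.

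Of the 3 transcription factors listed for their known action on these genes, Atf4, the factor of the amino acid response, rose and Myc and Mycn fell in both starvations. Myc was at 87.4, 89.3 and 89.0 CPM in unstarved, 71.9, 71.7 and 70.3 CPM in Cys-starved and 32.7, 36.7 and 35.4 CPM in Thr-starved libraries. The log2 fold changes of Myc were -1.34 ± 0.04, adjusted p = 8.77e-19, with Thr and -0.31 ± 0.03, adjusted p = 1.50e-07, with Cys. Mycn was at 295.9, 309.7 and 302.6 CPM unstarved, 276.0, 274.4 and 266.2 CPM Cys-starved and 255.3, 262.0 and 268.9 CPM Thr-starved, and fell by 0.21 and 0.15 on the log2 scale with Thr and Cys, where the GC and length offsets left -0.05 (adjusted p = 0.0466) with Thr. Atf4 was at 348.6, 358.9 and 354.6 CPM unstarved, 458.5, 458.9 and 445.9 CPM Cys-starved and 581.6, 588.3 and 597.7 CPM Thr-starved, a rise of 0.73 with Thr and 0.36 with Cys on the log2 scale. Among the members with a promoter window, the 3 with an E-box, Paics, Atic and Impdh2, fell in both starvations. Of the 5 without, Gart and Cad fell and Umps rose with Thr, and Ppat, Adsl and Umps fell and Cad rose with Cys. Pfas, which had no window to search, also fell in both. Called lower in both starvations were 11.0% of all genes tested and 24.9% of those at 50 CPM or more. Whether the factors act on these genes here was not tested.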

How the data were processed

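The data are poly(A) RNA libraries of E14 mouse ES cells, 3 unstarved, 3 starved of Cys and 3 of Thr for 3 h, grouped by their titles. Per the labels and the study's methods, the authors prepared strand-specific libraries, sequenced both fragment ends, mapped reads to GRCm38 with STAR 2.7.4a and counted them per gene with HTSeq, whose strand and overlap settings are not given in the sources used here. The labels describe the medium for Arg and Leu starvation and the methods a Cys-free medium for assays of cell death, and neither says which was used for these libraries. The authors deposited raw counts, and a second table whose signal values are the same counts divided by a DESeq2 size factor per library. Of the counts from 1 to 20, 67.8% were even, so that both ends of a fragment appear to have been counted, and the counts are not numbers of independent fragments.

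Raw counts of the 20143 genes with at least 1 count over the 9 libraries were tested in R 4.3.3 with edgeR 4.0.16 (TMM, 1 quasi-likelihood fit of all 9 libraries, Benjamini-Hochberg adjustment per comparison over all genes, threshold 0.05). The common biological coefficient of variation was 3.53%. Total counts per library are given in the report, and with counts halved, for the 2 ends, replicate pairs agreed within sampling noise at low counts (chi-square per gene from 0.989 to 1.07 for summed counts from 10 to 100) and differed by more at high counts (from 3.26 upward from 10000), with no library that looked like a copy of another. SE is the log2 fold change divided by the square root of F. The members and gene lists were chosen with earlier results of these data known, so their counts are descriptions and not independent evidence. Named genes were all members, all genes of the PRPP and branch lists, the 3 transcription factors and, of each other list, the 2 called genes with the largest rise and the 2 with the largest fall in each starvation among genes averaging 5 CPM or more. A gene that this rule names is not reported here. Gene models, lengths and overlaps came from GENCODE M21, and near-identical transcripts (at least 95% identity over at least 250 bases) from BLASTN 2.17.0.

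Alternatives were DESeq2 1.42.0, RLE normalization, the deposited size factors, filterByExpr, at least 10 counts in every library, fits of the 2 groups compared, a replicate block, an adjusted p of 0.01, a fold threshold (log2 of 1 or more in size), loess offsets (span 0.3) for GC content and exon length, and each library left out. Summing Impdh2 with its pseudogene was added after seeing the data. The main edgeR test and, for Thr-starved against unstarved libraries, the DESeq2 test were checked on simulated counts. The other alternatives and the descriptive values were not.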

Additional observations from a re-analysis of the deposited data

Results flagged for a closer look

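Cad and Umps were called in opposite directions in the 2 starvations, and the direct comparison, which tests this difference, called both. Cad was -0.21 ± 0.03 on the log2 scale in Thr-starved against Cys-starved libraries (adjusted p = 1.02e-06, edgeR, lower in 3 of 3 Thr-starved libraries), but with GC and length offsets it was 0.08, so its direction depends on that correction. Umps was 0.44 ± 0.03 (adjusted p = 1.78e-11, higher in 3 of 3 Thr-starved libraries), with values between 0.43 and 0.49 under the alternatives. Of all 20143 genes tested, 7.45% were called in opposite directions in the starvations, and 16.1% of those with at least 50 CPM. Both comparisons with unstarved cells share the unstarved libraries.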

How the results depend on the processing

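The calls of Gart, Pfas, Paics, Atic, Impdh2 and Umps with Thr, of Pfas, Paics, Adsl, Atic, Impdh2 and Ppat with Cys starvation, and of Ppat, Gart, Pfas, Paics, Adsl, Atic, Impdh2 and Umps between the starvations kept their direction and stayed past the threshold under all alternatives except the fold threshold. At a log2 fold change of 1 or more in size, 0 members were called in any comparison, and of the other nucleotide genes 0 were higher and 4 lower with Thr, 1 higher and 0 lower with Cys, and 0 higher and 2 lower between the starvations. With GC and length offsets 2 members rose with Thr, Cad (0.16) and Umps, and Cad was 0.082 higher with Thr than with Cys, Ppat was -0.081 with Thr, Dctpp1 0.14 and Ampd2 0.21 with Thr, and Mycn 0.11 and Rrm2b -0.076 between the starvations. The offsets also moved by over 1.5 times, with no change of direction, the values with Thr of Gmps (to -0.72) and Mthfd2l (to -0.68) and that of Dctpp1 with Cys (to -0.12), besides those given in the report, and Ctps lost its call between the starvations (0.044, adjusted p = 0.0890). With the deposited size factors 0 members rose with Cys, and the share of higher calls over all genes went from 48.2% to 36.8%, with 8 members lower. Leaving out each library gave 1 to 2 members higher with Thr and 0 to 1 with Cys starvation, where the third unstarved library decided the call of Cad.

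Values near 0, not called with either sign, changed sign. Dhodh with Thr was 0.0064 with DESeq2 or RLE, 0.0023 with the deposited size factors, 0.0055 with filterByExpr or only 2 groups, 0.00045 with the replicate block and 0.068 with the offsets, and Adsl with Thr was 0.00055 with DESeq2 and 0.00050 with RLE. Prpsap1 with Cys was -0.0016 with DESeq2, -0.0017 with RLE, -0.039 with the deposited size factors and -0.014 with the offsets. With the deposited size factors Ak4 was -0.00032 and Nt5c3b -0.021 with Cys, and Pnp 0.0091 and Samhd1 0.016 between the starvations. Leaving out 1 library gave -0.015 to 0.0083 for Adsl and -0.018 to 0.026 for Dhodh with Thr, -0.057 to 7.9e-05 for Dhodh, -0.019 to 0.037 for Prpsap1, -0.058 to 0.0060 for Dtymk and -0.00024 to 0.048 for Nt5c3b with Cys, and -0.00031 to 0.057 for Dhodh and -0.075 to 0.0050 for Pnp between the starvations. The cause of these changes was not tested.

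Same-numbered libraries did not deviate together, with correlations of their deviations from the group means between -0.24 and 0.11 over 11410 genes, so the replicate numbers were not taken to pair the samples. With the replicate block 1 member was higher and 6 lower with Thr, 1 higher and 6 lower with Cys, and 4 higher and 5 lower between the starvations, and of the other nucleotide genes 27 were higher and 35 lower, 14 and 25, and 26 and 34 in the same order of comparisons. Depth limits little here, since each member had at least 3179 counts in every library, whereas the change of Cad with Cys, about 0.1 on the log2 scale, depends on the scaling.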

Other observations

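Salvage enzymes, which rebuild nucleotides from bases and nucleosides, were mixed. Of 15 genes, 4 rose and 7 fell with Thr and 3 rose and 4 fell with Cys starvation. Over all genes tested, 31.1% were higher and 31.9% lower with Thr, and 17.5% and 18.8% with Cys. At 5 CPM or more the shares were 41.5%, 39.1%, 24.6% and 30.5% in the same order. Adk, the kinase of adenosine, was at 92.1, 90.3 and 91.7 CPM in unstarved, 79.2, 74.6 and 77.3 CPM in Cys-starved and 36.2, 36.9 and 37.7 CPM in Thr-starved libraries, and fell by 1.304 with Thr and 0.25 with Cys on the log2 scale. Uck1, a kinase of uridine and cytidine, rose by 0.94 and 0.29. Upp1, which splits uridine, was at 169.5, 166.5 and 168.0 CPM unstarved, 132.2, 132.0 and 135.6 CPM Cys-starved and 256.6, 267.3 and 269.6 CPM Thr-starved, a rise of 0.66 with Thr and a log2 fold change of -0.33 with Cys. Mtap, which recovers adenine from methylthioadenosine, fell with Thr by 0.73 (adjusted p = 3.14e-14, edgeR) and was at -0.04 with Cys (adjusted p = 0.396). Pnp fell in both, by 0.40 and 0.36, and Uckl1 rose with Cys by 0.41.

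Hprt, which returns hypoxanthine and guanine to the nucleotide pool, was counted only 10 to 29 times per library, a mean of 0.311 CPM over the 9 libraries, and was chosen here after its value was seen. The study's methods trace its E14 cells to a stock of the American Type Culture Collection, and E14 sublines selected for loss of Hprt are in wide use. The cause of the low count was not tested.

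Of 13 nucleotide kinases tested, 4 rose and 7 fell with Thr, and 0 rose and 8 fell with Cys starvation. Over all genes tested, 31.1% were higher and 31.9% lower with Thr, and 17.5% and 18.8% with Cys. At 5 CPM or more the shares were 41.5%, 39.1%, 24.6% and 30.5% in the same order. Ak1, a cytosolic adenylate kinase, rose by 0.69 with Thr and fell by 0.23 with Cys, Ak4 fell by 0.88 with Thr and was at 0.04 with Cys (adjusted p = 0.396), and Nme4 fell by 1.06 and 0.31. Dtymk, the kinase of dTMP, rose by 0.42 with Thr, and Nme1 fell by 0.26 with Cys. Of 12 genes of nucleotide breakdown tested, 3 rose and 5 fell with Thr, and 1 rose and 3 fell with Cys. Itpa, which removes ITP, rose by 0.40 and 0.20, Dpys rose by 0.63 with Thr, Nt5c2 fell by 0.56 and 0.20, Nt5c3b fell by 0.48 with Thr, and Ampd2 fell by 0.15 with Cys.

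By Pearson r over the 9 libraries on the log2(CPM + 0.5) scale, the genes outside the members most like Ppat among 11409 averaging 5 CPM or more were Slc39a1 (0.99), Gm14388 (0.98) and Rpn1 (0.98), and Paics ranked 1358 (0.77). Those most like Cad were Rbm10 (0.98), Zmat5 (0.98) and Cabin1 (0.97). The 9 libraries fall into 3 groups, so these values mostly reflect the order of 3 group means. By Spearman rho Paics ranked 2410.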
